A study of Mus musculus with 6 samples.

Results

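The genes described here are 10 transcription and response factors of the AP-1 and immediate early class: the FOS family (Fos, Fosb, Fosl1 and Fosl2), the JUN family (Jun, Junb and Jund), Atf3, Egr1 and Ier3. They were chosen by name, with earlier results of these data known. All 10 were found among the 24190 genes of the count table and passed the filter on low counts, which kept 14692 genes. RNA was sequenced from MTO54 organoids, a parental line of mouse colorectal cancer with the AKP genotype, carried by both groups, that was derived from a primary tumour of a genetically engineered mouse. The 3 control samples received medium, and the 3 Folfiri samples received the chemotherapy combination of 5-fluorouracil (50 μg per μl as written by the authors) and SN38, the active form of irinotecan (100 nM), for 2 days by the methods of the study. A figure legend of the study gives a longer treatment for chemotherapy-treated MTOs, and the exposure time is uncertain to that extent. In the study, chemotherapy served as a comparison condition for its work on YAP. MTO54 is 1 line. The replicates are called biological in a figure legend of the study, with no word on what separated them, so the p-values measure the spread between these samples of the line. Because the RNA is from whole cultures, fewer cells of a type and less RNA per cell cannot be told apart.

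AP-1 is a dimer of basic leucine zipper (bZIP) proteins. JUN proteins pair with each other, with FOS proteins or with ATF proteins, whereas FOS proteins do not bind DNA without a partner. Most FOS and JUN genes, Egr1 and Ier3 belong to the immediate early genes, whose transcription starts within minutes of a growth factor or a stress signal with no need for new protein, and whose transcripts are short-lived. In the intestinal epithelium AP-1 acts downstream of RAS and JNK signalling and cooperates with β-catenin and with YAP and TEAD factors at many enhancers.

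Total counts ranged from 22103591 to 30098210 per sample. Of the 14692 genes tested with edgeR's quasi-likelihood test, 79.1% passed an adjusted p of 0.05 (40.3% higher and 38.8% lower after Folfiri), so that a call by itself did not set a gene apart. Levels are given as CPM (counts scaled to a common library size) after TMM normalization, which scales libraries to a trimmed mean of the log ratios between them. Control replicate 1 stood apart: a chi-square statistic per degree of freedom over genes was 22.4 and 23.7 between it and the other controls, and 3.84 between control replicates 2 and 3. Folfiri replicate 3 also stood apart, to a smaller degree, at 11.9 and 12.3 from the other Folfiri samples, which were 3.55 from each other. Control replicate 1 lay on the Folfiri side of both other controls in 57.7% of all genes and in 8 of the 10 factors, and the log2 fold changes without it are given with most of the factors. The epithelial markers Epcam (1252 and 653 CPM on average in control and Folfiri samples), Cdh1, Krt8, Krt18 and Krt19 were abundant. The 9 epithelial markers summed to 6074 to 7062 CPM in controls and 4725 to 4904 CPM after Folfiri, with 5 lower and 1 higher (Cdh1). Lgals4 (397 to 81.9 CPM) and Cdx2 (157 to 54.5 CPM) fell furthest in proportion, and Krt20 was low in both groups (1.44 and 1.31 CPM). The 11 immune markers found summed to 21.6 to 26.3 CPM in controls and 22.5 to 23.4 CPM after Folfiri. Cd68 made up 23.6 and 20.5 CPM of this on average. Ptprc stood at 0.396 and 1.06 CPM and Adgre1 at 0.226 and 0.863 CPM, with Lyz2 and Tyrobp at or near 0. Only 3 immune markers were tested, of which Ptprc and Adgre1 were called higher. The 8 fibroblast markers summed to 1.08 to 1.49 and 2.15 to 2.65 CPM, with 2 of the 3 tested called higher and 1 lower. The 5 endothelial markers summed to 72.2 to 125 and 65.7 to 76.4 CPM, nearly all of it Cdh5, while Pecam1 had 0.470 and 0.459 CPM. The part of the fall in epithelial markers in the results below was not tested.

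Promoter sequence around the RefSeq transcription start (build GRCm38.p6, 250 bases before to 50 after) was at hand for 8 of the 10 genes, with Egr1 and Fosl1 named only. The cyclic AMP response element (CRE) is bound by CREB and ATF factors and by JUN and ATF dimers. Its core TGACG, searched on both strands, was present in 4 of these 8 promoters (Fos, Fosb, Junb and Atf3) and in 20.8% of 32851 mouse promoters of the same length. The variant TGACNTCA, which takes in TGACG where N is G, was present in Jun alone among the 8 and in 8.83% of all promoters. The stretches below come from the promoters that hold these letters, whatever the change of the gene. They include Jun, which was not called, and leave out Fosl2, Jund and Ier3, whose windows held neither form. Capitals mark TGACG, its complement CGTCA or, in Jun, TGACATCA, and each runs 5′ to 3′ on the strand of the gene.
Fos, chr12:85473805-85473864, plus strand: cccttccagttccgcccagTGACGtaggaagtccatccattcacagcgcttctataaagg
Fosb, chr7:19310071-19310130, minus strand: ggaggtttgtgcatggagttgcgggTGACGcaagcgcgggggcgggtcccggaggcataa
Junb, chr8:84978819-84978878, minus strand: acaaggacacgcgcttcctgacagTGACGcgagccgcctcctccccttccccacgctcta
Atf3, chr1:191183334-191183393, minus strand: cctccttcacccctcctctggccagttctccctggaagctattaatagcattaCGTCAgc
Jun, chr4:95052238-95052297, minus strand: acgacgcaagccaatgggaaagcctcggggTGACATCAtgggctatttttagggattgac

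These stretches lie before the RefSeq start, and in Atf3 the last 7 bases are exonic in the GENCODE annotation. The core starts 66 bases before the start of Fos (a further one 129 bases before), 60 before Fosb and 106 before Junb, and in Atf3 it covers bases 7 to 3 before the start. The Fos stretch also holds a TATA box (TATAAA, either strand) 33 bases before the start, a motif found in 2 of the 8 promoters and in 13.6% of all. The AP-1 site TGANTCA was found in 0 of the 8 windows (7.81% of all promoters), the CArG box bound by SRF in 0 (1.63%), the EGR site GCGNGGGCG in Fosb and Fosl2 (5.55%) and the kappaB site in Fos, Fosb, Fosl2 and Ier3 (8.46%). A match describes letters only and does not show binding.

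The factors did not move as a block. Folfiri raised Fosl1 4.04-fold and Egr1 2.80-fold and lowered Atf3 3.36-fold, Jund 2.15-fold, Ier3 1.72-fold, Fos 1.66-fold, Fosb 1.42-fold and Junb to 0.665 of its control level, while Fosl2 and Jun did not pass the test. This makes 8 of 10 called, 2 higher and 6 lower, against 79.1% of all genes called, a share near that background. A change of at least 2-fold was called in 4 of the 10, against 36.3% of all genes, and the 2 groups did not overlap in 8 of the 10, against 81.4% of all genes. The median log2 fold change of the 10 was −0.55, beside 0.02 for all genes tested, and the median of its absolute values was 0.76, beside 0.73.

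**Figure D1:**
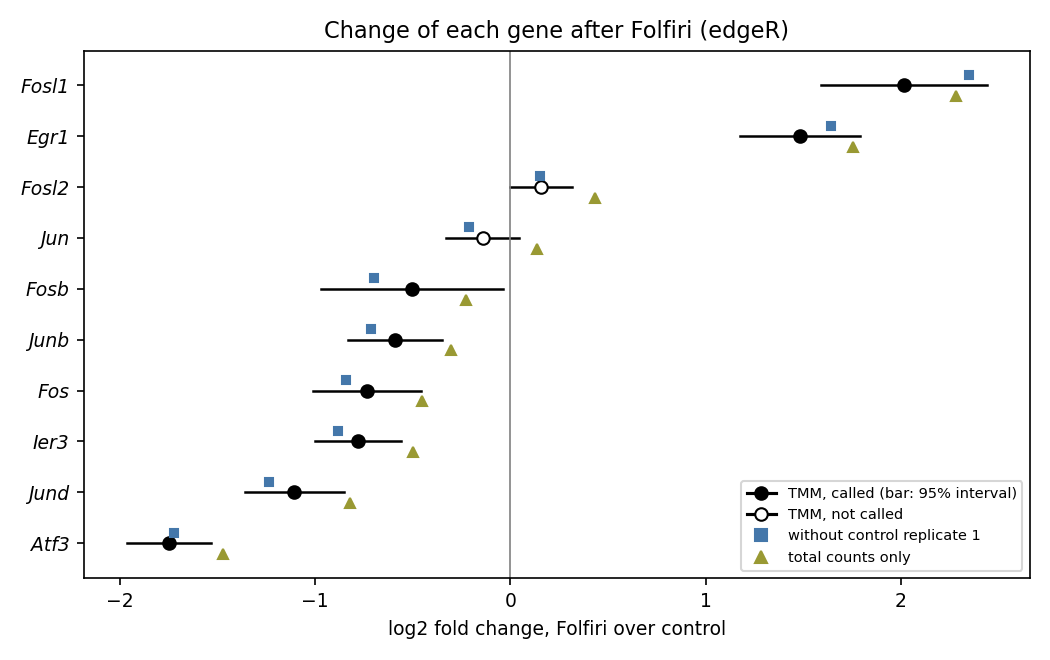
Log2 fold change of each factor, Folfiri over control, from edgeR with TMM normalization (circles, open where not called, with 95% intervals as lines), beside the value without control replicate 1 and the value with libraries scaled by total counts only. Fosl1 and Egr1 lie above 0 and Atf3, Jund, Ier3, Fos and Junb below 0 at each of the values drawn, whereas Jun changes sign with total counts only.

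**Figure D2:**
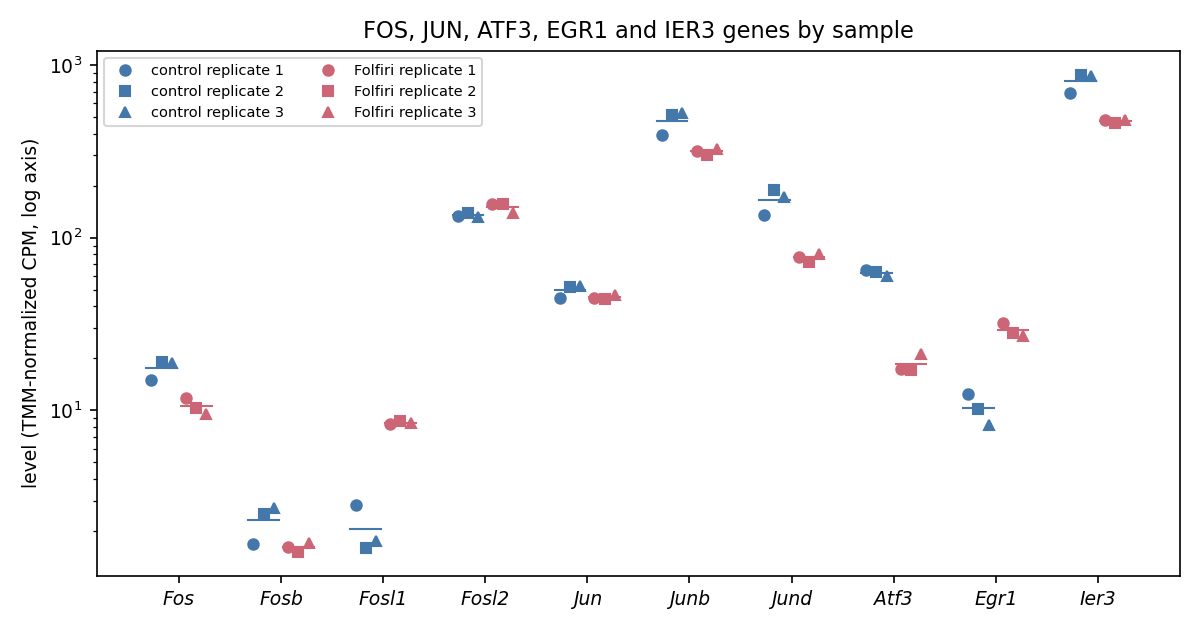
Level of each of the 10 factors in the 3 control and 3 Folfiri samples, in TMM-normalized CPM on a log axis, 1 point per sample. The groups are apart for all but Fosb and Jun, and control replicate 1 lies nearest to the Folfiri points for 8 of the 10 genes. Horizontal lines mark group means.

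Within the FOS family, Fos and Fosl1 moved in opposite directions. Fos (ENSMUSG00000021250, GRCm38 chr12:85473890-85477273), the founding member, whose transcript is the classic immediate early mRNA, stood at 15.0, 19.0 and 18.8 CPM in the controls and at 11.8, 10.4 and 9.56 CPM after Folfiri. Every Folfiri sample was below every control. The group means were 17.6 ± 2.24 and 10.6 ± 1.12 CPM (SD, n = 3 each), and the log2 fold change was −0.73 (SE 0.13, 95% interval −1.01 to −0.46, edgeR adjusted p = 0.000273). Without control replicate 1 it was −0.84.

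Fosl1 (ENSMUSG00000024912, chr19:5447547-5455946) encodes FRA-1, a FOS protein without the C-terminal activation domain of FOS that is known for sustained expression under RAS signalling. Its levels were low in the controls, at 2.84, 1.60 and 1.75 CPM, which rested on 79, 40 and 34 reads, and 8.38, 8.68 and 8.40 CPM after Folfiri, from 250, 269 and 277 reads. The Folfiri samples lay close together and all above the controls. The log2 fold change was 2.02 (SE 0.19, 95% interval 1.59 to 2.44, edgeR adjusted p = 3.34e-06), the largest rise among the 10, and 2.35 without control replicate 1. Of the 2033 exonic bases of Fosl1, 1163 overlap exons of Ccdc85b on the other strand. Ccdc85b itself went from 31.4 to 38.9 CPM (log2 fold change 0.31), and with a kit that does not mark strand the reads of the overlap cannot be told apart.

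Fosl2 (ENSMUSG00000029135, chr5:32135801-32157842), which encodes FRA-2, was the most abundant FOS family mRNA per length. It stood at 134, 139 and 132 CPM in the controls and at 157, 156 and 139 CPM after Folfiri. The groups met without overlapping, and the log2 fold change of 0.16 did not pass the threshold (SE 0.07, 95% interval −0.003 to 0.32, edgeR adjusted p = 0.0668). It passed without Folfiri replicate 3, at 0.21.

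Fosb (ENSMUSG00000003545, chr7:19302696-19310051), the least abundant of the family per length, was at 1.69, 2.52 and 2.73 CPM in the controls and 1.61, 1.52 and 1.70 CPM after Folfiri. Control replicate 1 lay inside the Folfiri range. The log2 fold change of −0.50 (SE 0.21, 95% interval −0.97 to −0.04) passed narrowly (edgeR adjusted p = 0.0461). The call was lost under 3 other settings. It was also lost when any 1 sample other than control replicate 1 was left out, at values of −0.54 to −0.39.

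The JUN family fell in Junb and Jund, with no call for Jun. Junb (ENSMUSG00000052837, chr8:84974484-84978718), a JUN protein with weak activation of its own that can hold JUN back, was the most abundant of the 7 FOS and JUN genes. Its levels were 391, 510 and 526 CPM in the controls and 320, 303 and 326 CPM after Folfiri. All Folfiri samples were lower, and control replicate 1 was the control nearest to them. Its log2 fold change was −0.59 (SE 0.11, 95% interval −0.83 to −0.35, edgeR adjusted p = 0.000483) and −0.71 without control replicate 1. Of its exonic bases, 173 overlap Prdx2, which went from 172 to 141 CPM.

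Jund (ENSMUSG00000071076, chr8:70698949-70700616), the member that is expressed most constantly in resting cells, was at 135, 190 and 172 CPM in the controls and 77.6, 72.0 and 80.7 CPM after Folfiri. The groups were far apart, and control replicate 1 was again the control nearest to the Folfiri samples. The log2 fold change was −1.11 (SE 0.11, 95% interval −1.36 to −0.85, edgeR adjusted p = 6.23e-06) and −1.23 without control replicate 1. Of its 1668 exonic bases, 877 overlap the annotated gene Gm11175.

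Jun (ENSMUSG00000052684, chr4:95049034-95052222), the partner that JNK phosphorylates, was at 44.7, 52.0 and 52.5 CPM in the controls and at 45.0, 43.9 and 46.3 CPM after Folfiri. Control replicate 1 lay within the Folfiri range, and the other controls lay above it. Its log2 fold change was −0.14 (SE 0.08, 95% interval −0.33 to 0.04, edgeR adjusted p = 0.143), and without control replicate 1 it was −0.21 and passed the test. Of its exonic bases, 232 overlap the antisense gene Junos.

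The remaining 3 factors all moved clearly. Atf3 (ENSMUSG00000026628, chr1:191170296-191218039), a bZIP factor that pairs with JUN proteins and is induced by many stresses, fell the furthest of the 10. It was at 64.6, 63.0 and 59.8 CPM in the controls and at 17.3, 17.2 and 21.2 CPM after Folfiri. The groups were far apart, the Folfiri samples spread more than the controls (SD of log2 CPM 0.17 and 0.06), and control replicate 1 was here the highest control. The log2 fold change was −1.75 (SE 0.10, 95% interval −1.96 to −1.53, edgeR adjusted p = 7.81e-08) and −1.72 without control replicate 1.

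Egr1 (ENSMUSG00000038418, chr18:34859823-34864984), a zinc finger factor switched on through SRF and ELK factors, was at 12.5, 10.2 and 8.28 CPM in the controls and at 32.3, 28.1 and 27.0 CPM after Folfiri. All Folfiri samples were above all controls, with control replicate 1 the highest control. Its log2 fold change was 1.48 (SE 0.14, 95% interval 1.17 to 1.79, edgeR adjusted p = 3.01e-06) and 1.64 without control replicate 1.

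Ier3 (ENSMUSG00000003541, chr17:35821684-35822923) encodes a short-lived protein that acts on cell survival and on ERK signalling and is no transcription factor. It was at 692, 879 and 867 CPM in the controls and at 482, 461 and 478 CPM after Folfiri. The Folfiri samples lay within a narrow range, all below the controls. The log2 fold change was −0.78 (SE 0.10, 95% interval −1.002 to −0.56, edgeR adjusted p = 3.37e-05) and −0.88 without control replicate 1.

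Scaling shifted all of these values together. When libraries were scaled by total counts alone, the median over all genes moved from 0.02 to 0.30 (log2). The values then were 2.28 for Fosl1, 1.75 for Egr1, 0.43 for Fosl2 (now called), 0.14 for Jun (a change of sign, not called), −0.22 for Fosb (no longer called), −0.31 for Junb, −0.45 for Fos, −0.50 for Ier3, −0.82 for Jund and −1.47 for Atf3. Without Folfiri replicate 3 (TMM), the values were 2.03 for Fosl1, 1.54 for Egr1, 0.21 for Fosl2 (called), −0.16 for Jun (not called), −0.54 for Fosb (not called), −0.61 for Junb, −0.66 for Fos, −0.78 for Ier3, −1.14 for Jund and −1.85 for Atf3. Without control replicate 1, Fosl2 was at 0.15 (not called) and Fosb at −0.70 (called).

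Levels between genes were compared per length, as CPM per kb of exon, since longer transcripts give more reads. In the controls the order was Ier3 (719 ± 92.7), Junb (207 ± 32.1), Jund (99.1 ± 16.8), Atf3 (29.0 ± 1.13), Jun (15.6 ± 1.38), Fosl2 (14.0 ± 0.370), Fos (7.48 ± 0.950), Egr1 (2.31 ± 0.471), Fosl1 (1.02 ± 0.334) and Fosb (0.370 ± 0.0876; SD, n = 3). Jun and Fosl2 differed by little more than their spread, and the other neighbours by more. After Folfiri the order was Ier3 (419 ± 9.57), Junb (137 ± 5.06), Jund (46.0 ± 2.65), Fosl2 (15.6 ± 1.03), Jun (14.1 ± 0.383), Atf3 (8.64 ± 1.06), Egr1 (6.50 ± 0.617), Fos (4.49 ± 0.476), Fosl1 (4.18 ± 0.0819) and Fosb (0.258 ± 0.0146). Fosl1, far below Fos in the controls, here differed from it by less than the spread of Fos, and Fosl2 and Jun had changed places. The place of Fosl1 rests on the length used. With exon bases shared with other genes left out, Fosl1 was at 2.37 CPM per kb in controls and 9.76 after Folfiri. In controls it then lay close to Egr1 and below Fos. After Folfiri it lay above Fos and Egr1, and above Atf3 by little more than the spread of Atf3. Jund kept its place below Junb in the means, at 209 and 97.1 against 223 and 149, but in controls this gap was small beside the spread. Among all genes tested, the per-length level of Atf3 went from percentile 84.8 to 62.2 and that of Egr1 from 35.5 to 55.7, while Ier3 stayed at 99.4 and Junb at 97.3.

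The make-up of each family was read within samples, where scaling between libraries has no part. The share of Fos in the summed FOS family mRNA per length was 29.1, 34.1 and 34.8% for the controls, against 19.5, 17.6 and 17.8% with Folfiri. The share of Fosl1 was 6.38, 3.33 and 3.75% for the controls, against 16.1, 17.1 and 18.1% with Folfiri. For both genes the groups did not overlap, so that Fos made up less of the family and Fosl1 more. Fosl2 held the largest share throughout, with 61.2 ± 1.87% in controls and 63.6 ± 0.707% after Folfiri, and Fosb had 1.61 ± 0.342 and 1.06 ± 0.118% (SD, n = 3). In the JUN family, Jund went from 30.8 ± 1.41 to 23.3 ± 0.399%, Junb from 64.3 ± 1.34 to 69.6 ± 0.311% and Jun from 4.89 ± 0.354 to 7.15 ± 0.120%. The exact two-sided permutation p was 0.1 for each of these shares except Fosl2 (exact p = 0.2), and 0.1 is the smallest that 3 against 3 allows, so no share could pass 0.05 here. The sizes depended on how length was treated. Counts without division by length gave a difference of −5.02 percentage points for Fos, against −14.4 per length, and of 3.64 points for Fosl1, against 12.6, and leaving out exon bases shared with other genes gave 22.6 points for Fosl1 and turned the small Fosl2 difference from 2.35 to −5.99 points.

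**Figure D3:**
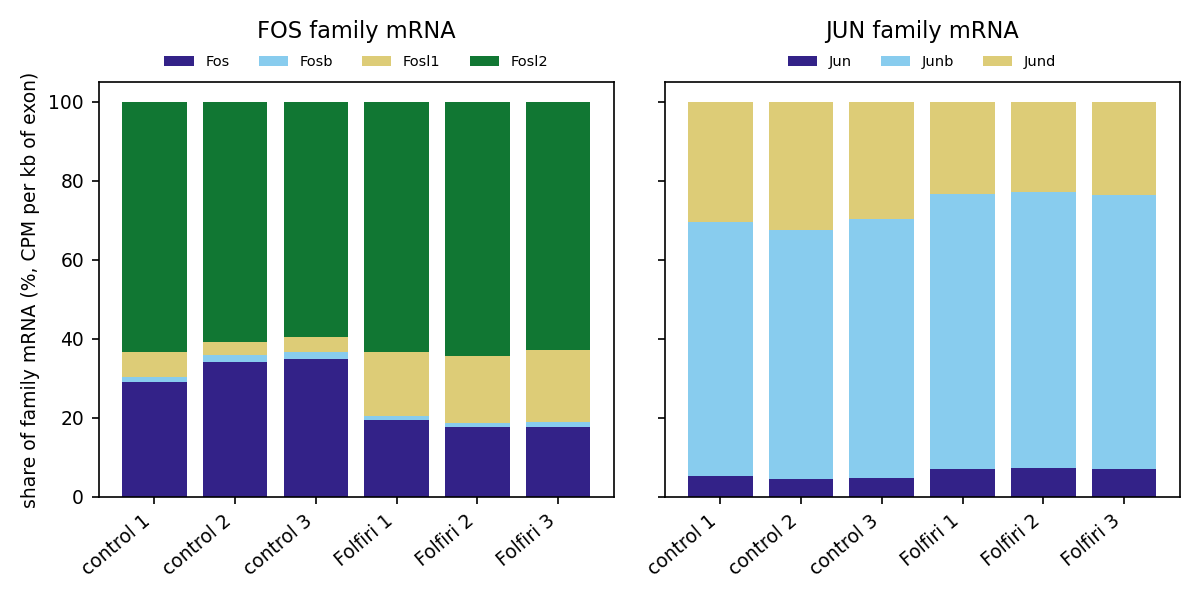
Share of each gene in the summed FOS family mRNA (left) and JUN family mRNA (right) of each sample, in percent of CPM per kb of exon, stacked to 100 for each of the 6 samples. The Fos share is lower and the Fosl1 share higher in all 3 Folfiri samples, and the Jund share is lower with higher Junb and Jun shares.

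The summed FOS family mRNA per length was 22.8 ± 0.871 CPM per kb in controls and 24.5 ± 1.46 after Folfiri (exact permutation p = 0.3), while the JUN family sum was 321 ± 49.2 and 198 ± 8.07 (exact permutation p = 0.1). Unlike the shares, both sums move with the scaling between libraries. They also depend on the length used. With exon bases shared with other genes left out, Fosl1 alone was at 2.37 CPM per kb in controls and 9.76 after Folfiri. That length widens the difference in the FOS sum. The log2 ratio of FOS to JUN family mRNA was −3.59, −3.89 and −3.92 for the controls, against −2.96, −2.91 and −3.16 with Folfiri. All Folfiri samples had the higher ratio, by 0.79 in the mean (exact permutation p = 0.1, the smallest possible). JUN family mRNA exceeded FOS family mRNA in all 6 samples.

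The spread of the factors between replicates is given as a description. The SD of log2 CPM within the controls had a median of 0.21 over the 10 (0.04 for Fosl2 to 0.43 for Fosl1), beside 0.15 over all genes tested, with Fosl2, Atf3 and Jun below that value. Within the Folfiri samples it was 0.08, beside 0.10 over all genes. Control replicate 1 moves with the first of these values, since 8 of the 10 were on the Folfiri side of the other controls in that sample; its part in the spread was not tested.

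Genes with the most similar profile over the 6 samples were ranked by the root mean square difference in log2 CPM after centring on the control mean, taking genes that averaged 10 CPM or more. For Fos these were Fam234a, the immediate early gene Csrnp1 and Ypel3 (0.05 to 0.06), for Fosl1 Mterf1a, Sptlc1 and Miga2 (0.02 to 0.05), for Junb Olfm5, Aldh2 and Cystm1, for Fosb Ccnl1, Snhg6 and Blcap, for Fosl2 Kif1c and Wdfy1, for Jund Ly6g, Sdf2 and Rpl36a-ps1, and for Jun C2cd2l, Ppp2ca and Carhsp1. For Atf3 they were Ifitm1, Sapcd2 and Sdf2l1, for Egr1 Slc38a7, Isg20l2 and Fam222b, and for Ier3 Ly6c1, Kif23 and Rab11a. With 79.1% of genes called, many genes share such a step between the groups.

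The other genes of the pathway are given from 7 lists, as counts beside the background of 79.1% called. Of the 18 other bZIP partners tested, 7 were higher, 6 were lower and 5 were not called (72.2% called, median log2 fold change 0.10), and with total counts only the split was 10 to 4. Without Folfiri replicate 2, 8 of the 18 were called, 4 in each direction. The small MAF protein Mafk, which lacks an activation domain, rose from 30.6 to 79.2 CPM, whereas its relative Maff fell from 242 to 102 CPM. Crem, a factor of the CREB group, rose from 3.87 to 7.42 CPM, and Atf4 and Creb5 rose by 0.26 and 0.49 on the log2 scale, with the call of Creb5 lost without control replicate 2 and without Folfiri replicate 2. Ddit3 (CHOP), a target of ATF4 in the stress of the endoplasmic reticulum, fell from 22.9 to 10.5 CPM, in the same direction as Atf3. Maf and the JUN dimerization protein Jdp2 had log2 fold changes of −1.31 and −0.77.

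Among 37 other immediate early genes, 15 were higher, 20 were lower and 2 were not called (94.6% called, median log2 fold change −0.40). Ptgs2, the inducible cyclooxygenase, rose from 5.56 to 112 CPM, Cyr61, a matricellular gene that YAP and SRF activate, from 2.25 to 28.8 CPM, the kinase Sgk1 from 11.9 to 78.4 CPM and the orphan receptor Nr4a2 by 2.29 on the log2 scale. The scaffold gene Homer1 fell from 79.7 to 15.1 CPM, the clock gene Per1 from 306 to 76.3 CPM, Ier5l from 93.3 to 26.6 CPM and Dusp1 from 60.1 to 21.8 CPM. The list thus held large changes both ways, as did the 10 factors.

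Of the 20 genes tested in the JNK and p38 pathway, which phosphorylates JUN and ATF proteins, 7 were higher, 11 lower and 2 not called (90% called, median −0.30), with a split of 8 to 6 under total counts only. The p38 kinases Mapk11 (28.2 to 68.0 CPM) and Mapk14 (58.2 to 87.2 CPM), the JNK gene Mapk9 and the upstream kinase Map3k7 rose. Other genes of both kinase families fell, with log2 fold changes of −0.30 for Mapk12, −0.47 for Mapk13 and −0.38 for the JNK gene Mapk8, which are named here after their values were seen. With total counts only these were −0.03, −0.19 and −0.11 and no longer called. Map3k1, which activates JNK, fell from 98.4 to 34.8 CPM, Map2k6, which activates p38, fell from 12.0 to 3.21 CPM, and the JNK scaffolds Mapk8ip3 and Mapk8ip1 fell by 1.05 and 0.77 on the log2 scale. Of the 23 genes of the RAS, ERK and SRF pathway, 8 were higher, 11 lower and 4 not called (82.6%, median −0.07; 11 to 7 with total counts only). The genes of the ERK kinases' activators, Map2k1 (293 to 61.3 CPM) and Map2k2 (75.5 to 30.8 CPM), fell, as did Map2k5 and Rps6ka5. Hras (32.7 to 67.5 CPM), Mapk7, and the factors that act at the Egr1 and Fos promoters, Elk1 (13.7 to 25.5 CPM) and Srf (33.5 to 47.2 CPM), rose.

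Of 19 genes of MAP kinase feedback, 6 were higher, 9 lower and 4 not called (78.9%, median −0.07; 9 to 5 with total counts only). The phosphatase genes Dusp14 (7.92 to 18.3 CPM), Dusp10 (4.03 to 8.80 CPM) and Dusp9 and the RAS inhibitor gene Spred3 rose. Dusp1, Dusp4 (351 to 169 CPM), the EGFR inhibitor gene Errfi1 (250 to 111 CPM) and the RAS GTPase activator Nf1 fell. Of 18 genes for turnover and co-regulators of AP-1, 6 were higher, 9 lower and 3 not called (83.3%, median −0.23; 7 to 5 with total counts only). Det1, Smarcd1 and the acetyltransferase genes Crebbp (32.3 to 61.1 CPM) and Ep300 (115 to 167 CPM) rose. The ubiquitin ligase genes Itch (174 to 98.8 CPM), which acts on JUN and JUNB, Rfwd2 (COP1; 74.6 to 43.3 CPM) and Trim7 fell, as did the deubiquitinase gene Usp28.

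Of 25 genes taken as AP-1 targets, 12 were higher, 8 lower and 5 not called (80% called, median log2 fold change 0.17; 16 to 6 with total counts only). The collagenase gene Mmp13 rose from 0.266 to 4.66 CPM, Tnf from 3.79 to 29.2 CPM, the urokinase gene Plau from 22.0 to 144 CPM and Ccnd1, which encodes cyclin D1, from 78.6 to 394 CPM. Vegfa, the angiogenic factor, fell from 1041 to 74.9 CPM, Cdkn1a, which encodes the cell cycle inhibitor p21, from 256 to 82.7 CPM, Hmox1 from 87.5 to 28.2 CPM and Tgfb1 from 96.5 to 36.3 CPM. Exons of Ccnd1, Cdkn1a, Mapk8ip3, Mafk, Maf, Crem, Creb5, Jdp2, Rps6ka5, Spred3, Trim7 and Smarcd1 share over 100 bases with an annotated neighbour. Their reads may be split or mixed. The same holds for Ddit3, which shares 105 bases with a further entry of the same name.

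**Figure D4:**
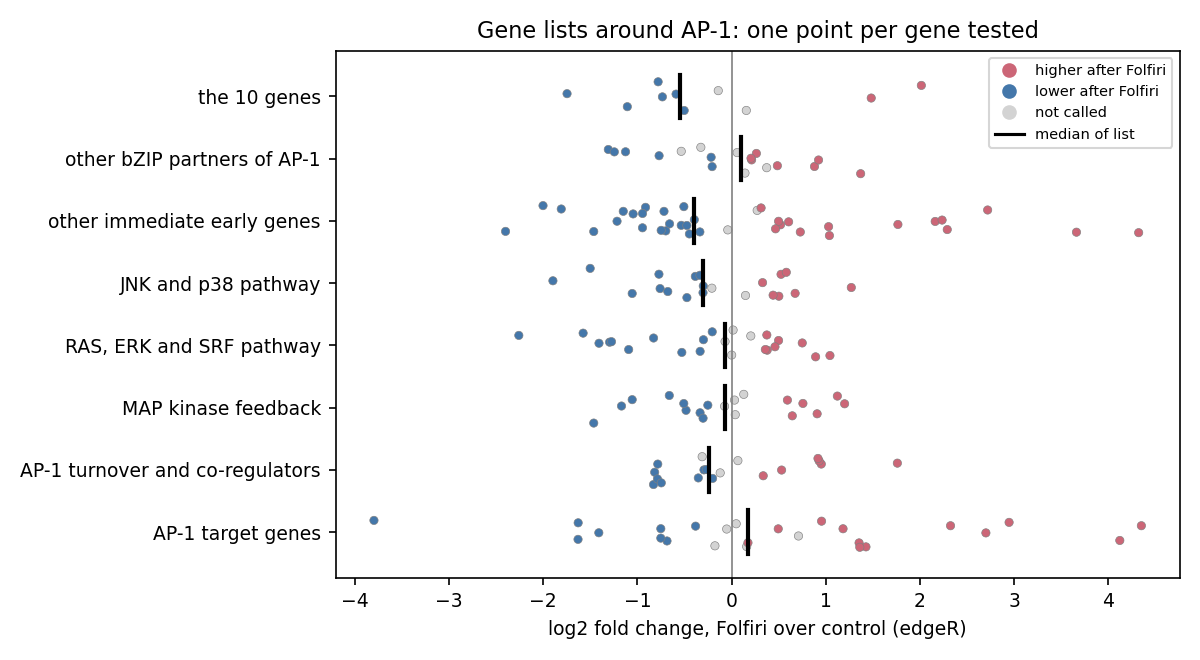
Log2 fold change (Folfiri over control, edgeR with TMM) of every tested gene in each list, 1 point per gene, coloured by call, with the median of each list as a vertical bar and the 10 factors in the top row. Each list holds genes called on both sides of 0.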

How the data were processed

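RNA was selected on poly(A) and made into libraries with a kit that does not mark strand. The authors aligned the reads with STAR (version 2.5.2 in the submitters' processing notes) to the mouse genome (GRCm38) with GENCODE vM25, made the gene counts with Rsubread and deposited them raw, without normalization, for 6 samples. The strand setting and the handling of reads with several positions are not given in the sources used here. Samples were grouped by their titles.

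From these counts, edgeR 4.0.16 in R 4.3.3 was run with filterByExpr, TMM and the quasi-likelihood test on all 6 samples, with Benjamini-Hochberg adjustment over 14692 genes and a threshold of 0.05. SEs were derived from the fold change and its F statistic, and intervals are 95%. Symbols, exon lengths and positions came from GENCODE vM21 on the same build, which held 24168 of the 24190 gene IDs. Ddit3 had 2 entries, of which the more abundant was used. Per-length shares were compared by exact permutation. Promoter sequences came from RefSeq (GRCm38.p6).

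The 10 genes and the lists were chosen with earlier results of these data known. In each list, up to 4 genes per direction were named by absolute log2 fold change among called genes averaging 1 CPM or more, and 3 genes of like profile were taken for each factor. Some items, among them a gene of like profile for Fosl2 and the altered genes of the AKP genotype, are not reported here. The alternatives were DESeq2 1.42.0 size factors, total counts, upper quartile scaling, no filter or a stricter filter (1 CPM in 3 samples), the DESeq2 Wald test, a replicate block, leaving out each sample and counts without division by length. Scripts were tested on simulated data. Counts limit precision through depth, and the PCR copies among reads cannot be told from separate molecules.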

Additional observations from a re-analysis of the deposited data

How the results depend on the processing

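Fos, Fosl1, Junb, Jund, Atf3, Egr1 and Ier3 kept their direction and their call under all 13 alternatives, with the adjusted p highest for Junb (edgeR, 0.0073). The log2 fold change of Fosb (−0.50) lost its call with total counts only (−0.22), upper quartile scaling (−0.45) and the DESeq2 Wald test (−0.52, adjusted p = 0.103), and ranged from −0.70 to −0.39 when 1 sample was left out. For Fosl2 the log2 fold change (0.16) gained a call with total counts only (0.43), with upper quartile scaling (0.21) and without Folfiri replicate 3 (0.21), and ranged from 0.13 to 0.21 with 1 sample left out. For Jun the log2 fold change (−0.14) turned to 0.14 with total counts only and ranged from −0.21 to −0.11 with 1 sample left out. Total counts only make no allowance for a difference in composition, with the median of all genes at 0.30. Which scaling lies nearer to the RNA per cell was not tested. The number of genes called (11623) was 11021 to 12312 with 1 sample left out and 10630 to 12742 otherwise, and the share of calls that were higher went from 51.0 to 63.3% with total counts only. Calls among other bZIP partners (13) ranged from 8 (without Folfiri replicate 2) to 14, and the other lists kept within 1.5 times their count.

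The difference in share, Folfiri minus control in percentage points of the family, depended on length. Without division by length it was −5.02 for Fos (−14.4 as reported), 3.64 for Fosl1 (12.6), 3.04 for Jun (2.27) and 3.35 for Junb (5.26). With exon bases shared with other genes left out of the length, a setting chosen after seeing the data, it was 22.6 for Fosl1, −5.99 for Fosl2 (2.35 as reported), 7.21 for Junb and −9.28 for Jund (−7.52), and the log2 ratio of FOS to JUN rose by 1.09 in place of 0.79. Whether reads in those shared bases were counted is not given in the sources used here.

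Replicate numbers did not pair the samples: deviations of same-numbered samples correlated at 0.03, −0.12 and 0.04. The fit with a replicate block called 11499 genes and left the calls of the 10 factors as they were. Depth limits Fosb and Fosl1 most, and 3 samples a group keep the exact test of a share from going below 0.1.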
